A study of Danio rerio with 6 samples.

Results

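Radial glia structural and metabolic genes were examined as a group in bulk RNA-seq of the adult zebrafish spinal cord, after sham surgery and at 1 week post injury (1 wpi). The group was named by symbol: gfap, vim, nes, fabp7a, s100b, glula, glulb, cspg5a and hepacama. Of these 9 genes, 7 were found under their symbol among the 14781 genes of the count files, and nes and cspg5a were not analysed here. All 7 passed the filter on low counts, which 12804 genes passed in all.

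Sham fish had an incision that exposed the spinal cord and left it intact, and injured fish had a complete transection of the cord. Both groups were adult male and female fish of the Ekkwill (EK) strain, shams being clutchmates of the injured fish, and each was sampled as 3 libraries. The tissue was the cord up to 2 mm on either side of the lesion, rostral and caudal, and the same stretch was taken from shams. The title of each control library says sham and its treatment label says uninjured. How many fish stand behind each library, and whether libraries came from separate fish, is not stated in the sources, and the p-values cover only the spread among these libraries, part of which may be technical.

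Radial glia line the central canal of the zebrafish spinal cord and send processes to its surface. They persist in the adult, where they act as ependymal cells and as progenitors, and they take on supporting tasks that astrocytes carry out in mammals. After a transection they proliferate, give rise to neurons, and elongated glia bridge the gap between the stumps. Their products include intermediate filament proteins, a fatty acid binding protein, a calcium binding protein, glutamine synthetase, which joins glutamate and ammonia to glutamine, and adhesion proteins. Several of these genes are also used by other cells. In mammals vimentin is a filament protein of fibroblasts, macrophages and endothelium as well as of glia, and S100B is also made by oligodendrocyte lineage and Schwann cells.

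Libraries held 19310220 to 30147448 reads counted in genes. Sham replicate 1 stood apart from the other sham libraries. Its summed level over 18 fibroblast and meningeal genes was 13492 CPM (counts in 1000000 reads counted in genes, after scaling between libraries), against 3735 and 2962 CPM in the other sham libraries, and over 17 neuronal genes it was 17671 CPM against 27925 and 31590 CPM. Oocyte genes summed to 859 CPM there and to 20.2 to 55.2 CPM in the other 5 libraries. Injured replicate 1 differed from the other injured libraries in its summed level over 29 skeletal muscle genes. That level was 65698 CPM in injured replicate 1, and 19839 and 26123 CPM in injured replicates 2 and 3. In sham replicates 1, 2 and 3 it was 33179, 15903 and 11412 CPM. Markers of the labelled tissue were present, the neuronal gene snap25a at 2418 to 7515 CPM and the oligodendrocyte gene cldnk at 359 to 505 CPM. Results of the group are given with and without sham replicate 1, as are those of other genes and lists where stated. Where no other setting is stated, calls of single genes are those of all 6 libraries alone. Where 3 values of a group are given below, they are those of replicates 1, 2 and 3 in that order.

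Of the 7 genes, vim alone passed the test across all genes, and the other 6 had small positive differences that did not. vim rose 1.63-fold at 1 wpi (edgeR quasi-likelihood test, Benjamini-Hochberg adjusted p = 0.0294, 3 against 3 libraries). Fold changes of gfap, fabp7a, s100b, glula, glulb and hepacama were 1.14 to 1.27, with adjusted p from 0.176 to 0.380. Over all genes tested, 5.81% were called higher and 4.83% lower at 1 wpi. The median log2 fold change of the 7 genes was 0.30, against -0.03 for all genes tested, and 7 of 7 were positive where 47.3% of all genes were. The 6 genes other than vim had like profiles over the libraries, so the 7 are not independent. The group was also chosen with earlier results of these data known. Sham replicate 2 was the highest sham library for the 6 genes other than vim. Against it alone, the injured mean was lower for s100b, hepacama and glulb (0.984, 0.963 and 0.944 times). In whole tissue, a change in the number of cells of a type and a change in RNA per cell cannot be told apart.

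**Figure D1:**
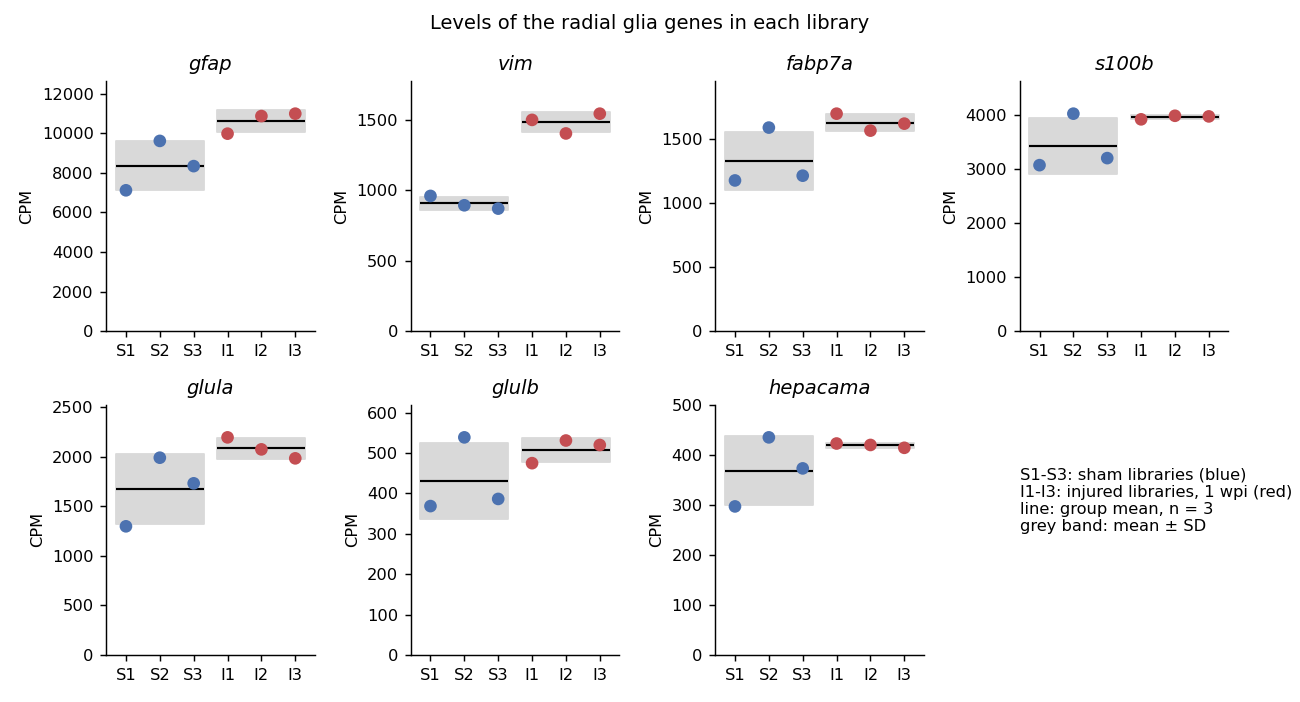
Level of each gene in each library, in CPM on a linear axis from 0, with sham replicates 1 to 3 as S1 to S3 in blue and injured replicates 1 to 3 as I1 to I3 in red. Black lines are group means (n = 3) and grey bands are mean ± SD. The injured points of vim, at 1402 to 1542 CPM, lie far above its sham points, while sham replicate 2 of s100b, glulb and hepacama is level with or above the injured points.

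The intermediate filament genes of the group were gfap and vim. gfap encodes glial fibrillary acidic protein, the filament protein that marks radial glia and astrocytes. It stood at 7115, 9609 and 8336 CPM in sham and 9975, 10864 and 10985 CPM in injured libraries. The highest sham and the lowest injured library lay close together, but the groups did not overlap. The mean was 8354 ± 1247 CPM in sham and 10608 ± 551 CPM in injured libraries (SD, n = 3), a log2 fold change of 0.34 (SE 0.165, 95% interval -0.06 to 0.75). This did not pass the edgeR test (adjusted p = 0.176). gfap took up 0.746% to 1.1% of all reads counted in genes.

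vim encodes vimentin, a filament protein of progenitors and of many non-neuronal cells. Its level was 959, 892 and 869 CPM in sham and 1498, 1402 and 1542 CPM in injured libraries. Every injured library lay well above every sham library. The mean was 907 ± 46.6 CPM in sham and 1480 ± 71.7 CPM in injured libraries (SD, n = 3), a log2 fold change of 0.71 (SE 0.101, 95% interval 0.46 to 0.95). The sham libraries differed least for this gene, with a coefficient of variation of 5.14%, where the other 6 genes had 14.9% to 21.7%. In all, the injured libraries lay above the sham libraries in 2 of the 7 genes, gfap and vim, and in 22.9% of all genes tested. With 3 against 3 libraries the smallest 2-sided p of an exact permutation test is 0.1, which both genes reached.

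The fold of vim was steady as libraries were left out, but its call was not. Without sham replicate 1 the log2 fold change of vim was 0.75 (edgeR adjusted p = 0.000251), and without any one of the other 5 libraries it was no longer called, with adjusted p from 0.107 to 0.169 and log2 fold changes from 0.68 to 0.75. In each of those 5 fits edgeR called 0 of all genes, so every edgeR call on all 6 libraries shares this limit. At an unadjusted p below 0.05 there were 3026 to 3440 genes, and DESeq2 called 1669 to 2004. For gfap the log2 fold change was 0.24 without sham replicate 1, and it then passed (edgeR adjusted p = 0.0396). In that fit 29% of all genes were called higher and 28.2% lower. DESeq2 on all 6 libraries called both, with adjusted p = 9.38e-16 for vim and 0.0364 for gfap, and called 14.6% of all genes higher and 14.5% lower.

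fabp7a encodes the brain type fatty acid binding protein, a long used marker of radial glia. It stood at 1179, 1592 and 1216 CPM in sham and 1701, 1568 and 1623 CPM in injured libraries. Sham replicate 2 lay between injured libraries, so the groups overlapped. The means were 1329 ± 229 and 1631 ± 66.6 CPM (SD, n = 3), with a log2 fold change of 0.30 (SE 0.148, 95% interval -0.06 to 0.65, edgeR adjusted p = 0.191).

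s100b encodes a small calcium binding protein of glia. Its level was 3066, 4017 and 3196 CPM in sham and 3912, 3978 and 3966 CPM in injured libraries. Sham replicate 2 was the highest of all 6 libraries, and the injured libraries were nearly equal. The means were 3426 ± 515 and 3952 ± 35.1 CPM (SD, n = 3), with a log2 fold change of 0.21 (SE 0.146, 95% interval -0.15 to 0.56, edgeR adjusted p = 0.332). A RefSeq gene table of another zebrafish assembly places a long noncoding RNA over s100b. The strand setting of the counting is not stated, so reads of the 2 cannot be told apart.

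The metabolic genes of the group were glula and glulb, paralogs that both encode glutamine synthetase. glula stood at 1298, 1991 and 1732 CPM in sham and 2196, 2075 and 1984 CPM in injured libraries. Only the lowest injured library fell below sham replicate 2, and by a small margin. The means were 1674 ± 350 and 2085 ± 106 CPM (SD, n = 3), with a log2 fold change of 0.32 (SE 0.177, 95% interval -0.11 to 0.75, edgeR adjusted p = 0.230).

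glulb stood at 369, 539 and 386 CPM in sham and 475, 531 and 520 CPM in injured libraries. Sham replicate 2 was above every injured library. The means were 431 ± 93.6 and 509 ± 29.7 CPM (SD, n = 3), with a log2 fold change of 0.24 (SE 0.164, 95% interval -0.16 to 0.64, edgeR adjusted p = 0.321). A further paralog, glulc, had 3 to 10 counts in each library and was not tested.

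hepacama is a zebrafish counterpart of mammalian HEPACAM, an adhesion protein of the glial cell membrane. It stood at 297, 435 and 373 CPM in sham and 423, 420 and 415 CPM in injured libraries. The injured libraries had a coefficient of variation of 1.04%, and sham replicate 2 was above all of them. The means were 369 ± 69.2 and 419 ± 4.35 CPM (SD, n = 3), with a log2 fold change of 0.19 (SE 0.147, 95% interval -0.17 to 0.54, edgeR adjusted p = 0.380). The intervals of gfap, fabp7a, s100b, glula, glulb and hepacama each include 0, and each also includes a log2 difference of 0.5, so neither no difference nor a moderate rise could be set aside with these libraries.

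The size of these 6 differences depended on which sham library they were read against. The order of the sham libraries was replicate 1 lowest, then 3, then 2 in 6 of 7 genes, an order found in 18.1% of all genes tested. vim had another order, with sham replicate 1 highest. Read against sham replicate 2 alone, the injured mean was 1.66 times as high for vim, 1.1 for gfap, 1.05 for glula, 1.02 for fabp7a, 0.984 for s100b, 0.963 for hepacama and 0.944 for glulb. The spread was larger in sham than in injured libraries in 7 of 7 genes, as it was in 82.7% of all genes. The median SD of log2 CPM over the 7 genes was 0.239 in sham and 0.0705 in injured libraries, against 0.213 and 0.0455 over the 1943 genes whose mean was 100 CPM or more.

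**Figure D2:**
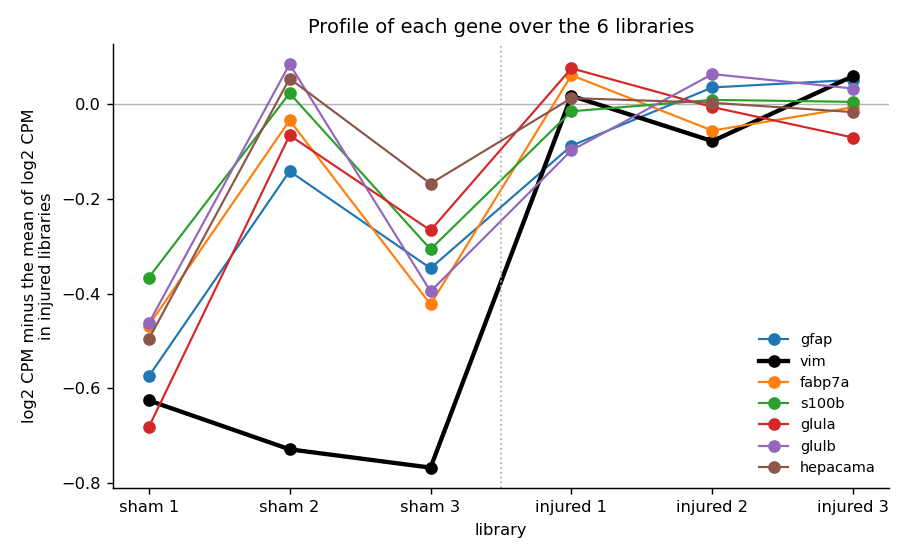
Profile of each gene over the 6 libraries, as log2 CPM minus the mean of its log2 CPM in the 3 injured libraries, so that injured libraries scatter around 0. The 6 thin lines dip in sham replicate 1, come back near 0 in sham replicate 2 and dip again in sham replicate 3, while vim (thick black line) is low in all 3 sham libraries.

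The 6 genes moved down without sham replicate 1 and up without sham replicate 2. Without sham replicate 1, their log2 fold changes were 0.05 for hepacama, 0.13 for s100b, 0.14 for glulb, 0.17 for glula, 0.22 for fabp7a and 0.24 for gfap. Without sham replicate 2 they were 0.32 for hepacama, 0.34 for s100b, 0.43 for glulb, 0.46 for glula, 0.45 for fabp7a and 0.46 for gfap. In that last set of libraries edgeR called no member and 0 of all genes. At an unadjusted p below 0.05 there were 4 of 7 members, against 3440 of all 12894 genes. DESeq2 called 6 of 7 members. The exception was hepacama (DESeq2 adjusted p = 0.0875), and DESeq2 called 8.26% of all genes higher there. Leaving out sham replicate 1 lowered the log2 fold change by more than 1.5 times for glula, glulb, s100b and hepacama. As given above, sham replicate 1 also had a higher summed fibroblast level and a lower summed neuronal level than the other sham libraries. The part of these differences in the lower glial levels of that library was not tested.

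**Figure D3:**
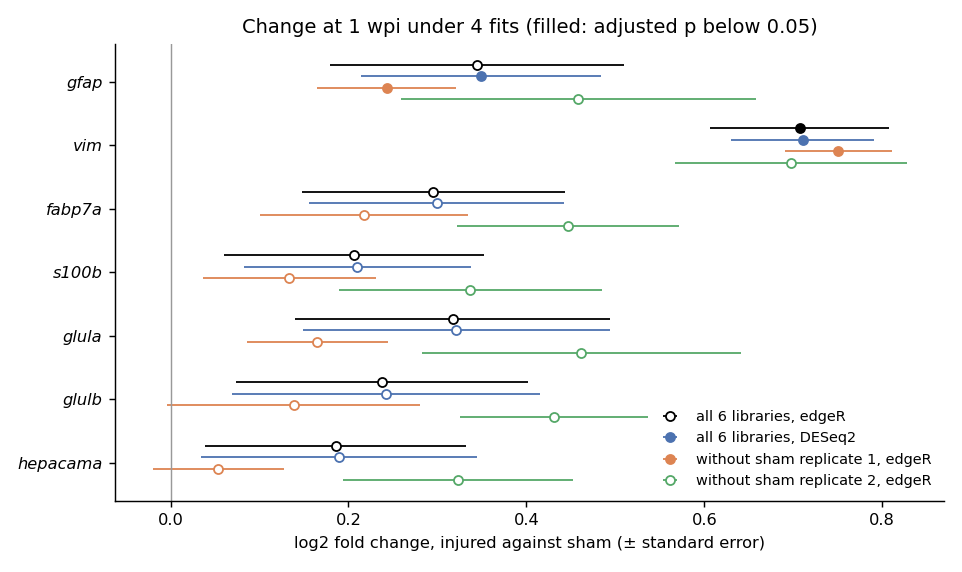
Log2 fold change (injured against sham) ± standard error of each gene in 4 fits, namely edgeR and DESeq2 on all 6 libraries and edgeR without sham replicate 1 or without sham replicate 2. Filled points have an adjusted p below 0.05. vim stays between 0.70 and 0.75, while hepacama moves from 0.05 without sham replicate 1 to 0.32 without sham replicate 2.

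Whether genes of the group moved by unequal amounts was asked with ratios of counts within a library, which do not depend on how libraries are scaled. The ratio of vim to gfap counts was 0.135, 0.0929 and 0.104 in sham and 0.150, 0.129 and 0.140 in injured libraries. Sham replicate 1 lay between injured libraries. The mean log2 ratio was 0.35 higher in injured libraries, which was not significant (exact 2-sided permutation test, p = 0.2, 0.4 adjusted over 4 ratios). Without sham replicate 1 the difference was 0.50 and the groups did not overlap (exact p = 0.1, the smallest that 3 against 2 libraries allow). With any other library left out instead, it was 0.24 to 0.41 (exact p = 0.2 to 0.3).

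The ratio of glula to glulb counts was 3.52, 3.70 and 4.48 in sham and 4.62, 3.91 and 3.82 in injured libraries. Both groups covered much the same range, with a log2 difference of 0.08 (exact permutation test, p = 0.5, adjusted p = 0.667). For fabp7a to gfap the log2 difference was -0.05 (exact p = 0.9, adjusted p = 0.9) and for s100b to gfap it was -0.14 (exact p = 0.2, adjusted p = 0.4). Both pairs overlapped between groups. Since no p below 0.1 is possible with 3 against 3 libraries, none of these 4 ratios could have passed a threshold of 0.05, and the tests do not show that the genes moved by equal amounts.

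The genes most like each member were taken as those with the smallest root mean square difference of centred log2 CPM over the 6 libraries, among 8430 genes whose mean was 10 CPM or more. The 6 glial genes other than vim lay 0.064 to 0.143 apart in each pair, and vim was 0.246 to 0.322 from each. Genes outside the group were mostly nearer. Only for glulb did the 3 nearest genes include another member, s100b, at 0.070. The nearest gene to gfap was olig2, a transcription factor of oligodendrocyte and motor neuron progenitors, at 0.041. For fabp7a it was slc3a2b, at 0.035, the zebrafish counterpart of the heavy chain of amino acid exchangers. s100b and glulb shared psat1, an enzyme of serine synthesis, at 0.045 and 0.057. For glula and hepacama, prom1b, a zebrafish prominin 1 gene, lay at 0.056 and 0.036. For hepacama pigf came first, at 0.034. vim was nearest to irf9, a transcription factor of the interferon response, at 0.043, then to klhl24a and glt8d1. These distances describe 6 libraries, all genes sharing the same libraries and depth.

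**Figure D4:**
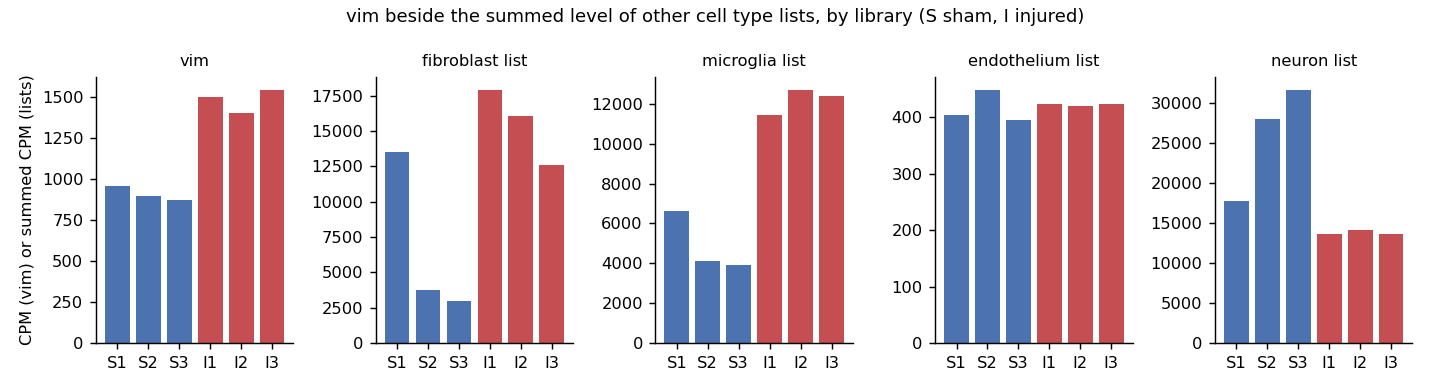
Level of vim (CPM) and summed CPM of the fibroblast, microglia, endothelium and neuron lists in each library, as bars on linear axes from 0, for sham (blue, S1 to S3) and injured (red, I1 to I3) libraries. In sham replicate 1 the fibroblast list reaches 13492 CPM, within the injured range of 12593 to 17906 CPM, and vim is at 959 CPM, under its injured range of 1402 to 1542 CPM. Most of the fibroblast level comes from col1a1a, col1a1b and col1a2, and most of the neuron level from nefma, snap25a and nefmb. Most of the injured microglia level comes from apoeb. The part of the listed cells in the vim result was not tested.

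Since vim is not particular to radial glia, the levels of other cells that use it were set beside it. Of 17 fibroblast and meningeal genes tested, 3 passed as higher and none as lower, against 5.81% and 4.83% of all genes, and without sham replicate 1 the counts were 15 and 1, against 29% and 28.2%. The summed level of the 18 in the files was 2962 to 13492 CPM in sham and 12593 to 17906 CPM in injured libraries. Among its defining markers col1a1a and col1a2 were present and pdgfrb was at 0 in all 6 libraries. The summed fibroblast level was higher in sham replicate 1 than in injured replicate 3, and vim stood at 959 CPM in the former and 1542 CPM in the latter. Most of both sums came from col1a1a, col1a1b and col1a2 (3533, 3473 and 2905 CPM, then 3061, 2818 and 2438 CPM). Single genes of the list went both ways between these libraries, with fn1a at 810 and 1016 CPM and dcn at 631 and 762 CPM. The comparison sets a single sham library, the one that stands apart, beside 1 injured library, and the part of fibroblasts in the vim result was not tested. The summed level of 17 genes of microglia and macrophages was 3915 to 6645 CPM in sham and 11449 to 12713 CPM in injured libraries. Most of the injured sum came from apoeb, at 3412, 1331 and 1442 CPM in sham and 7485, 8382 and 8297 CPM in injured libraries. Log2 fold changes in the list ran from 0.18 to 1.97, the highest being that of apoeb, with a median of 0.87. Of these 17, 4 were called higher and none lower, against 5.81% and 4.83% of all genes, and no gene was at 0. With sham replicate 1 left out, 15 of 17 were called higher, against 29% of all genes. DESeq2 on all 6 libraries called 11 higher, against 14.6% of all genes, and neither fit called any of the 17 lower. This summed level, like vim, was higher in every injured library than in every sham library. Among sham libraries both were highest in replicate 1 and lowest in replicate 3. Among injured libraries the orders differed, replicate 2 having the highest sum, 12713 CPM, and the lowest vim, 1402 CPM. The part of microglia and macrophages in the vim result was not tested. The 16 endothelial genes summed to 396 to 449 CPM in sham and 421 to 424 CPM in injured libraries. Of them 1 was called higher and 3 lower, against 5.81% and 4.83% of all genes, and none was at 0. Without sham replicate 1 the counts were 3 and 5, against 29% and 28.2%. The defining markers went both ways. pecam1 was called higher (log2 fold change 0.96, edgeR adjusted p = 0.0281) and kdrl lower (-0.73, edgeR adjusted p = 0.0424). cdh5 did not pass (edgeR adjusted p = 0.549).

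The zebrafish genome holds a further copy of several of these genes. viml, a vimentin-like gene, stood at 110 ± 22.6 CPM in sham and 134 ± 9.36 CPM in injured libraries (SD, n = 3), a log2 fold change of 0.28 (edgeR adjusted p = 0.225). fabp7b had a log2 fold change of 0.31 (edgeR adjusted p = 0.335). cspg5b, a paralog of the unanalysed cspg5a, encodes a chondroitin sulfate proteoglycan of the nervous system. It stood at 23.8, 22.9 and 21.4 CPM in sham and 31.5, 31.7 and 31.9 CPM in injured libraries, a log2 fold change of 0.48 (edgeR adjusted p = 0.0345). The groups were far apart. Reads that fit 2 copies equally well had been removed by mapping quality, which can lower the count of paralogs with near-identical stretches.

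Among other genes of radial glia and ependymal cells, the edgeR calls on all 6 libraries at 1 wpi were in the upward direction. Of 36 tested, 6 were called higher and none lower, against 5.81% and 4.83% of all genes. The median log2 fold change of the list was 0.19. sox2, a stem cell factor, rose 1.53-fold, from 141 ± 8.15 to 216 ± 8.59 CPM (SD, n = 3, edgeR adjusted p = 0.0281). foxj1a, a regulator of motile cilia that marks ependymal cells, stood at 118, 78.4 and 85.4 CPM in sham and 205, 215 and 194 CPM in injured libraries. It rose 2.18-fold (edgeR adjusted p = 0.0301), with no overlap between groups. rfx2, another cilia regulator, rose 1.49-fold, and sox9a, a factor of glial progenitors, rose 1.53-fold. mfge8a, whose mammalian counterpart is an adaptor protein in phagocytosis, rose with a log2 fold change of 0.58. The paralogs foxj1b, rfx3 and sox9b, in the same list, did not pass (edgeR adjusted p = 0.637, 0.192 and 0.692). The log2 fold change of sox9b was -0.09. cyp19a1b, also in this list, had its lowest log2 fold change, -1.38, and is described in the closing observations. Without sham replicate 1, 15 of 36 were called higher and 6 lower, against 29% and 28.2% of all genes. DESeq2 on all 6 libraries called 15 of 37 higher and 1 lower, against 14.6% and 14.5% of all genes. The difference between the genes of this list and gfap was not tested.

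Glial transporters, channels and enzymes showed no common direction. Of 32 tested, 2 were called higher and 1 lower, against 5.81% and 4.83% of all genes. The median log2 fold change of the list was 0.000163. glud1a, a glutamate dehydrogenase that breaks down the same glutamate which glutamine synthetase uses, rose 1.82-fold, from 74.1 ± 21.7 to 135 ± 6.59 CPM (SD, n = 3, edgeR adjusted p = 0.0481). gldc, a subunit of the glycine cleavage system, rose 1.80-fold (edgeR adjusted p = 0.0497). atp1b2b, a beta subunit of the sodium potassium pump, fell, with 209, 382 and 386 CPM in sham and 102, 92.7 and 101 CPM in injured libraries (log2 fold change -1.73, edgeR adjusted p = 0.0294). psph, which makes serine, and slc6a1a, a GABA transporter, had log2 fold changes of 0.51 and -0.83 and did not pass (edgeR adjusted p = 0.0597 and 0.0687). Both passed without sham replicate 1 (edgeR adjusted p = 0.0109 and 0.000383) and with DESeq2 on all 6 libraries (adjusted p = 0.00953 and 0.0153). Without sham replicate 1, 6 of 33 were called higher and 9 lower, against 29% and 28.2% of all genes.

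**Figure D5:**
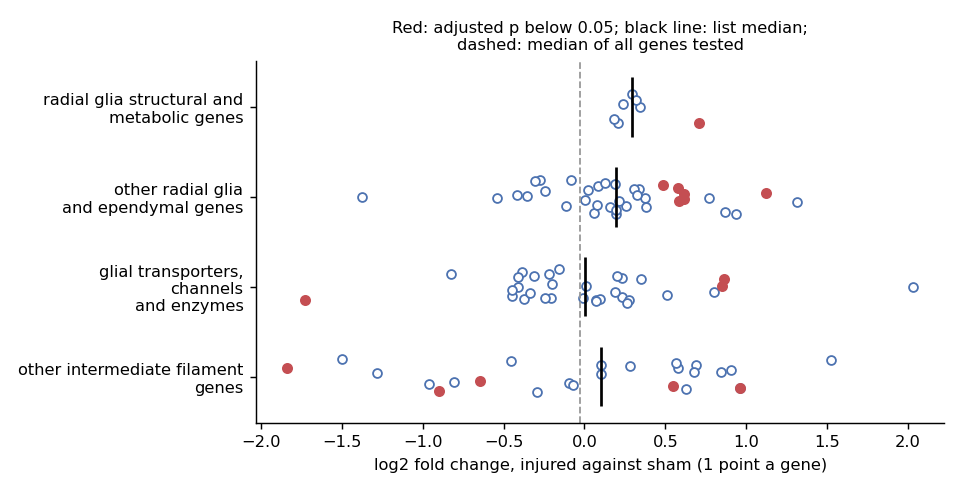
Log2 fold change (injured against sham) of each tested gene in 4 lists, 1 point a gene, with red points for an adjusted p below 0.05, black lines for list medians and a dashed line for the median of all genes tested (-0.03). The 7 radial glia structural and metabolic genes all lie to the right of the dashed line, and the other 3 lists spread to both sides.

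Other intermediate filament genes changed in both directions. Of 25 tested, 2 were called higher and 3 lower, against 5.81% and 4.83% of all genes. The median log2 fold change of the list was 0.10. inab, an internexin gene of neurons, rose 1.94-fold, from 125 ± 28.1 to 244 ± 6.71 CPM (SD, n = 3, edgeR adjusted p = 0.0346), and prph, the peripherin gene of neurons, rose 1.46-fold (edgeR adjusted p = 0.0430). The neurofilament genes nefmb and neflb fell, with log2 fold changes of -1.84 and -0.90 (edgeR adjusted p = 0.0294 and 0.0497), as did lmnl3, a lamin-like gene (-0.64, edgeR adjusted p = 0.0294). Without sham replicate 1, 8 of 26 were called higher and 5 lower, against 29% and 28.2% of all genes. Neuronal genes as a whole had 0 of 17 called higher and 4 lower by edgeR, against 5.81% and 4.83% of all genes. At an unadjusted p below 0.05 there were 10 of 17, against 4892 of all 12804 genes. DESeq2 called 1 higher and 9 lower, against 14.6% and 14.5% of all genes. Without sham replicate 1, edgeR called 1 higher and 13 lower, against 29% and 28.2% of all genes. The summed level of the neuronal genes was 17671 to 31590 CPM in sham and 13576 to 14121 CPM in injured libraries. Most of it came from nefma, snap25a and nefmb, with means of 10382, 6055 and 3405 CPM in sham and 5935, 2439 and 954 CPM in injured libraries. nefma and nefmb are also in the filament list. Single neuronal genes had log2 fold changes from -1.84 to 0.44, with a median of -0.60.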

How the data were processed

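RNA of sham and injured spinal cord was sequenced by the authors (TruSeq RNA kit, Illumina HiSeq, single reads). The deposited files hold raw counts of reads per gene symbol, which the authors made by aligning to danRer10 with TopHat2, a mapping quality filter of SAMtools 1.3.1 and HTSeq 0.6.0. In the submitters' processing notes Trim Galore, DESeq2 1.26.0 and TopHat2 2.2.1 also appear, and the methods give another TopHat2 version. For the annotation and the strand setting, nothing was given in the sources used here. The last 5 rows of a file count reads outside genes, and neither library sizes nor tests used them. Those with no gene made up 43.8%, 50.9% and 51.3% of all reads listed in sham replicates 1, 2 and 3. In injured replicates 1, 2 and 3 they made up 41.2%, 42.1% and 42.0%. The part of this difference in the results was not tested.

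The members and gene lists were chosen with earlier results of these data known. edgeR 4.0.16 in R 4.3.3 kept genes by filterByExpr (minimum count 10, minimum total 15), scaled libraries by TMM and tested injury, the only term, by quasi-likelihood, with p-values adjusted by Benjamini-Hochberg over 12804 genes and a threshold of 0.05. CPM are counts in 1000000 reads of the scaled library size. Standard errors were derived from the F statistic, and intervals from a t distribution. Profiles used log2 CPM with a prior count of 2. DESeq2 1.42.0 and limma 3.58.1 (voom with sample weights) were alternatives, beside other scalings, filters, a replicate block and leaving out each library. The procedure was tested on simulated data. All 9 members were to be named, and of 3 further lists up to 5 genes with the smallest adjusted p. sox9a, sox9b, foxj1b, rfx3, viml, fabp7b, glulc and the genes of the closing observations were named after their values were seen. Counts of every pair of libraries in a group differed beyond sampling noise. Sequences were not used here, and no coordinates are given because the gene table is of another assembly.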

Additional observations from a re-analysis of the deposited data

How the results depend on the processing

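All 7 members kept a positive log2 fold change under each of the alternatives run, and vim lay between 0.68 and 0.75. RLE and upper-quartile scaling, scaling without muscle, erythrocyte and oocyte genes, no filter, and a minimum of 10 counts in every library left vim as the 1 member called and gave 1167 to 1640 genes in all, against 1362. DESeq2 called 3779 genes and 2 members (vim and gfap). limma-voom with sample weights called 7545 genes and 2 members. With the replicate number as a block, edgeR called 0 genes (4322 at an unadjusted p below 0.05) and 0 members, vim having a log2 fold change of 0.71 and an adjusted p of 0.0847. Whether equal numbers mark paired samples cannot be settled with 3 libraries a group. Deviations of same-numbered libraries from their group means correlated at -0.165, -0.026 and 0.067, and no library correlated best with its own number. Leaving out 1 library gave 0 to 7397 genes and 0 to 6 members over edgeR and DESeq2, the highest counts coming from different fits. The 6 members came with DESeq2 without sham replicate 2, which called 1986 genes. The edgeR fit with 7397 genes called 2 members. The 7397 came without sham replicate 1, and edgeR called 0 genes without any of the other 5, with 3026 to 3440 at an unadjusted p below 0.05, where DESeq2 called 1669 to 2004. The cause was not tested. The log2 ratio of glula to glulb was -0.0063 to 0.185 with 1 library left out, the negative value being that without injured replicate 1. The ratios of nes to gfap and to vim and the member sequences were not run. Each member had at least 6016 counts in each library, and what limits the precision of these values was not tested.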

Other observations

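Glial glutamate transporters take up the glutamate that glutamine synthetase then converts, and their genes did not share a pattern with each other. slc1a3b stood at 125, 9.38 and 9.70 CPM in sham and 197, 194 and 198 CPM in injured libraries. Sham replicate 1 lay far above the other sham libraries and below the injured ones. The log2 fold change was 2.03 (SE 1.04) and did not pass (edgeR adjusted p = 0.197), and without sham replicate 1 it was 4.36 (edgeR adjusted p = 4.61e-06). slc1a3a stood at 55.9 ± 10.9 CPM in sham and 43.1 ± 1.29 CPM in injured libraries (SD, n = 3, log2 fold change -0.38, edgeR adjusted p = 0.118), and without sham replicate 1 it was called lower (log2 fold change -0.51, edgeR adjusted p = 0.00223). slc1a2b, the counterpart of the main glutamate transporter of mammalian astrocytes, had a log2 fold change of 0.23 (edgeR adjusted p = 0.290), and 0.11 without sham replicate 1.

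Glutamate dehydrogenase is also encoded by 2 copies. Beside glud1a, which was called higher, glud1b stood at 349, 459 and 462 CPM in sham and 350, 314 and 293 CPM in injured libraries. Its log2 fold change of -0.41 did not pass (edgeR adjusted p = 0.0940), and without sham replicate 1 it was -0.53 (edgeR adjusted p = 0.00253). cyp19a1b, the brain aromatase that in fish is made by radial glia, stood at 22.2, 56.5 and 38.9 CPM in sham and 14.1, 12.5 and 18.8 CPM in injured libraries. Every injured library was below every sham library, and its log2 fold change of -1.38 did not pass (edgeR adjusted p = 0.0563), while DESeq2 called it (adjusted p = 0.00158).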
